A study of Drosophila melanogaster with 24 samples.

Results

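The cytosolic glutathione transferases of the adult fly head are the subject here, taken as every row of the deposited table whose FlyBase symbol is Gst followed by a capital letter. There were 35 such genes among 17606, namely 11 GstD (Delta), 14 GstE (Epsilon), 3 GstO (Omega), 1 GstS (Sigma), 4 GstT (Theta) and 2 GstZ (Zeta) genes. A gene was tested when it reached 10 normalized counts in at least 3 libraries, which 12493 genes and 34 of the 35 Gst genes did. GstD7, which reached 10 normalized counts in 1 library, was not tested.

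Total RNA depleted of ribosomal RNA was sequenced from heads of old (21 to 25 days after eclosion) and young (0 to 2 days) flies of each sex, with 3 libraries per age, sex and genotype, 24 in all. All flies carried the H3.3A2x1 null allele over the deficiency Df(2L)Bsc110, so that both genotypes lacked a functional gene for H3.3A, one of a pair of genes for the histone variant H3.3. In H3.3K36R flies (labelled H3.3BK36R) the remaining gene, H3.3B on the X chromosome, also carried a missense mutation of lysine 36 to arginine. H3.3Anull flies (labelled H3.3Adelta) had a wild-type H3.3B, and neither group is therefore a wild type with respect to H3.3A. Each library pooled the heads of 10 to 25 flies. The comparisons ask whether loss of lysine 36 changes transcript levels in the head, and whether it does so differently with age and sex.

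Glutathione transferases join the tripeptide glutathione to electrophilic compounds such as products of lipid peroxidation, plant toxins and insecticides, which makes these compounds more soluble and easier to export. In insects the Delta and Epsilon classes have expanded by tandem duplication and are best known for detoxification and insecticide resistance. Many of these genes are inducible by oxidative or xenobiotic stress through the transcription factor CncC (encoded by cnc), the fly counterpart of mammalian Nrf2, which is held in check by Keap1. The Omega, Theta, Zeta and Sigma classes are more conserved across animals, and the Zeta class includes the maleylacetoacetate isomerase of tyrosine breakdown.

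Between 21263006 and 42763126 reads per library, with a median of 27084709, were recovered on genes. Values are normalized counts, the reads divided by a size factor for the depth of each library. No main comparison used replicate 2 of the young H3.3K36R males, which entered only the alternative with all 24 libraries. It stood apart with a summed count of 152132 for 17 midgut markers, against at most 14787 in the other 23 libraries. For the testis markers its sum was 25424, against at most 848 in the others. The noncoding RNA lncRNA:roX1, which marks males, lay between 39681 and 65843 in male libraries, above the highest female value of 3195. His3.3A (H3.3A) lay between 269.6 and 525 normalized counts over the 23 libraries used and did not pass the test between H3.3K36R and H3.3Anull in old heads (log2 fold change -0.02, adjusted p = 0.943) or young heads (log2 fold change -0.14, adjusted p = 0.493), and a missense mutation cannot be read from counts.

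The genes lie mostly in tandem groups. On the dm6 assembly the 11 GstD genes span 20849 bases of chromosome arm 3R (chr3R:12364776-12385624), and GstE1 to GstE10 span 13198 bases of arm 2R (chr2R:18396638-18409835). GstO1 to GstO3 lie within 5982 bases of arm 3L, GstT1 and GstT2 within 2363 bases of arm 2R, and GstZ1 and GstZ2 are neighbours on the minus strand of arm 3R with 268 bases between them. GstE11 to GstE14 and GstS1 stand alone on arm 2R, and GstT3 and GstT4 on the X chromosome. Members of a cluster are related in sequence, and how reads that match several of them were counted is not given in the sources used here. GstT2 shares 25.1% of its exon length with CG12926 on the opposite strand, and their reads can be told apart only if counting used strand. The other overlaps with neighbouring genes cover at most 5.08% of a member.

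Levels between genes were compared per kilobase of exon. Over the 23 libraries together GstE12 had the highest median, 7084 normalized counts per kilobase, and GstD1 followed with 5987. This order was reversed in old H3.3K36R heads, where GstD1 had a median of 8424 per kilobase and GstE12 6929, against 4103 and 6571 in old H3.3Anull heads. GstD1, known for its activity against DDT and widely used as a reporter of oxidative stress, supplied 71.3% to 87.0% of the summed GstD count in every library used. GstE3 (2069 per kilobase) and GstE1 (1156) came next over the 23 libraries, ahead of GstS1 with 977, GstE9 with 878, GstT4 with 854, GstO3 with 839 and GstZ2 with 552. The lowest tested genes were GstE10 (3.59 per kilobase), GstD6 (4.84), GstD8 (10.1), GstD4 (11.3) and GstD5 (13.9), at which a few reads decide the value.

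In old heads the Gst genes differed between genotypes mainly upwards. With limma and an adjusted p below 0.05 as the threshold, 11 of the 34 rose in H3.3K36R and 2 fell, where 18.6% of all tested genes passed in either direction (10.0% higher, 8.59% lower). Those that rose were GstD1, GstD2, GstD3 and GstD5 of 10 tested GstD genes, GstE1, GstE3, GstE5, GstE7 and GstE8 of 14 GstE genes, GstS1, and GstZ2. GstE13 and GstZ1 fell, and no GstO or GstT gene passed the test. The median log2 fold change was 0.29 over the 34 genes and 1.03 over the GstD genes, beside -0.0025 over all tested genes. The plot of genotype differences gives every member at both ages.

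**Figure D1:**
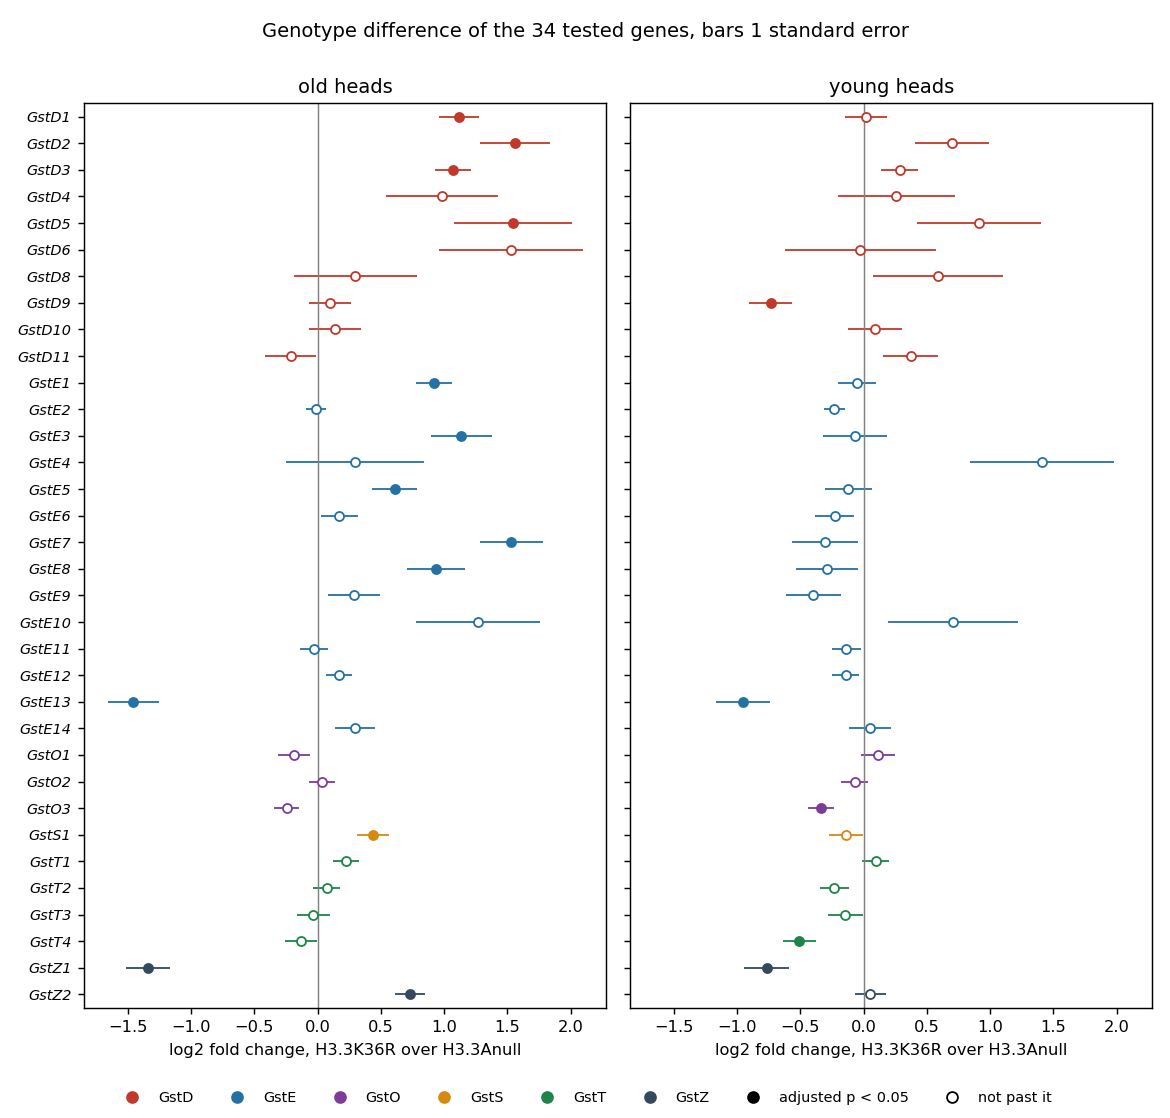
Log2 fold change of H3.3K36R over H3.3Anull (x axis) for each of the 34 tested genes (rows, coloured by subfamily) in old heads (left) and young heads (right), with bars of 1 standard error and filled points where the adjusted p was below 0.05. In old heads 11 filled points lie right of 0 and 2 left of it, and in young heads the 5 filled points all lie left of 0.

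GstD1 showed the difference at the highest level. It had 9200.2, 8308 and 6652 normalized counts in old H3.3K36R females, against 3985, 3068 and 3904 in old H3.3Anull females. Old males had 7551, 5922 and 6268 in H3.3K36R, against 3707, 3211 and 2387 in H3.3Anull. All 6 old H3.3K36R libraries were thus above all 6 old H3.3Anull libraries, with means of 7317 ± 1270.4 and 3377 ± 609.8 (SD, n = 6 each). On the log2 scale the genotypes differed by 1.12 ± 0.16 (estimate ± standard error from limma, adjusted p = 2.17e-05). Young heads gave 3118 to 7155 (median 5045, n = 5) in H3.3K36R, against 4349 to 5417 (median 5161, n = 6) in H3.3Anull, and these ranges overlap (log2 fold change 0.02 ± 0.17, adjusted p = 0.955).

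GstD2 and GstD3, which follow GstD1 in the cluster on the opposite strand, were higher in old H3.3K36R heads too, at lower levels. GstD3 had 878, 578 and 472 normalized counts in old H3.3K36R females, against 274, 265 and 266 in old H3.3Anull females, and 491, 448 and 505 in old H3.3K36R males, against 241, 257 and 257 in old H3.3Anull males. GstD2 had 265, 216 and 177 in old H3.3K36R females, against 56.0, 74.7 and 60.2 in old H3.3Anull females. In old males it had 109.5, 181 and 166 in H3.3K36R, against 58.0, 45.9 and 70.4 in H3.3Anull. For both genes the old genotypes did not overlap in either sex. The log2 fold changes were 1.07 ± 0.14 for GstD3 (adjusted p = 1.06e-05) and 1.56 ± 0.28 for GstD2 (adjusted p = 0.000282).

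GstD5 also rose in old heads (log2 fold change 1.54 ± 0.47, adjusted p = 0.0229), on 24.9 to 88.0 normalized counts (median 28.9) in H3.3K36R, against 5.51 to 21.3 (median 12.8) in H3.3Anull. This call rests on single libraries, since the adjusted p was at most 0.0666 but above 0.05 without old female H3.3K36R replicate 1, old male H3.3K36R replicate 1 or old male H3.3Anull replicate 2, and with all 24 libraries. The genes at both ends of the cluster gave no call. GstD9, GstD10 and GstD11 had log2 fold changes of 0.10 ± 0.16, 0.14 ± 0.20 and -0.21 ± 0.20, and GstD6, which had a median of 12.7 normalized counts in old H3.3K36R heads and 2.45 in old H3.3Anull heads, had 1.53 ± 0.57 (adjusted p = 0.064). The cluster was thus not uniform, as the plot along the clusters shows.

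**Figure D2:**
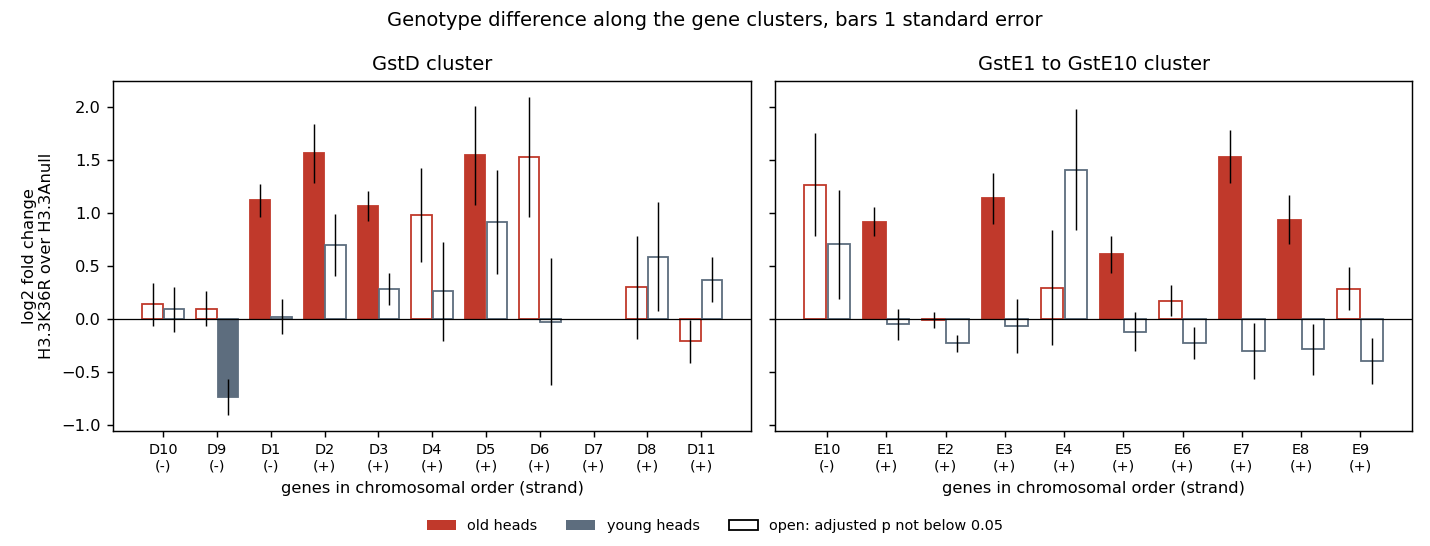
Log2 fold change of H3.3K36R over H3.3Anull (y axis, thin lines of 1 standard error) for the genes of the GstD cluster (left) and the GstE1 to GstE10 cluster (right) in chromosomal order, with old heads in red, young heads in grey and open bars where the adjusted p was not below 0.05. GstD7 was not tested and has no bar. Called genes of old heads stand beside genes that did not pass, and GstD9 is the 1 filled bar of young heads.

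In the GstE1 to GstE10 cluster 5 of 10 genes rose in old H3.3K36R heads and none fell. GstE1 had 2158, 2186 and 2169 normalized counts in old H3.3K36R females, against 961, 1107 and 1025 in old H3.3Anull females, and 1642, 1384 and 1827 in old H3.3K36R males, against 986, 982 and 879 in old H3.3Anull males. GstE7 had 531, 585 and 446 in old H3.3K36R females, against 191, 137 and 169 in old H3.3Anull females, and 688, 454 and 709.7 in old H3.3K36R males, against 330.2, 219 and 160.4 in old H3.3Anull males. Neither gene overlapped between genotypes in old heads. The log2 fold changes were 0.92 ± 0.14 for GstE1 (adjusted p = 5.87e-05) and 1.53 ± 0.25 for GstE7 (adjusted p = 0.000114). GstE3 had 1515 to 2264 normalized counts (median 1904) in the 6 old H3.3K36R libraries, against 605 to 1304 (median 799) in the 6 old H3.3Anull libraries, again without overlap, and its log2 fold change was 1.14 ± 0.24 (adjusted p = 0.00173). GstE8 (0.94 ± 0.23, adjusted p = 0.00593) and GstE5 (0.61 ± 0.18, adjusted p = 0.0178) also rose.

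GstE2 lies between GstE1 and GstE3 in this cluster and did not differ by genotype in old heads. It had 231 to 363 normalized counts (median 291) in old H3.3K36R heads, against 221 to 352 (median 303) in old H3.3Anull heads, a log2 fold change of -0.01 ± 0.08 (adjusted p = 0.934). GstE6 (0.17 ± 0.15) and GstE9 (0.29 ± 0.21) did not pass the test either. GstE12, which lies outside the cluster, had 8703 to 12865 normalized counts (median 9686) in old H3.3K36R heads, against 7504 to 10770.5 (median 9187) in old H3.3Anull heads. Its log2 fold change of 0.17 ± 0.10 did not pass (adjusted p = 0.29), nor did that of GstE14 (Noppera-bo), which is required for ecdysteroid synthesis in the larval prothoracic gland (0.30 ± 0.16, adjusted p = 0.204).

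GstZ1 and GstZ2 moved apart although they are neighbours on one strand. GstZ2 had 1578, 1684 and 1600.1 normalized counts in old H3.3K36R females, against 1051, 808 and 825 in old H3.3Anull females, and 1726, 2059 and 1759 in old H3.3K36R males, against 1644, 863 and 1282 in old H3.3Anull males. GstZ1 had 78.7, 76.8 and 49.6 in old H3.3K36R females, against 216, 133 and 154 in old H3.3Anull females, and 41.2, 45.9 and 38.3 in old H3.3K36R males, against 139, 123 and 81.6 in old H3.3Anull males. The genotypes did not overlap within either sex, upwards for GstZ2 and downwards for GstZ1. GstZ2 rose (log2 fold change 0.73 ± 0.12, adjusted p = 9.73e-05) and GstZ1 fell (-1.34 ± 0.17, adjusted p = 6.24e-06). Because GstZ2 made up a median of 92.8% of the summed GstZ count, the sum followed GstZ2.

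GstE13, which lies by itself on arm 2R, was the gene with the largest decrease in old heads. It had 100.0, 82.2 and 71.5 normalized counts in old H3.3K36R females, against 173, 220.5 and 221 in old H3.3Anull females, and 52.1, 66.5 and 73.7 in old H3.3K36R males, against 191, 184 and 228 in old H3.3Anull males. The genotypes were fully separate, and the log2 fold change was -1.46 ± 0.20 (adjusted p = 1.7e-05). GstS1, whose product conjugates the lipid peroxidation product 4-hydroxynonenal and which is abundant in flight muscle, had 2952, 2625 and 2164 in old H3.3K36R females, against 2733, 1518 and 1681 in old H3.3Anull females. In old males GstS1 had 2319.6, 2144 and 2291 in H3.3K36R, against 2089, 1298 and 1626 in H3.3Anull. The females overlapped, and the log2 fold change of 0.44 ± 0.13 (adjusted p = 0.02) was the smallest of the calls. It was lost with all 24 libraries and without old female H3.3K36R replicate 1, old female H3.3Anull replicate 2 or old male H3.3Anull replicate 2, with an adjusted p of up to 0.174.

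**Figure D3:**
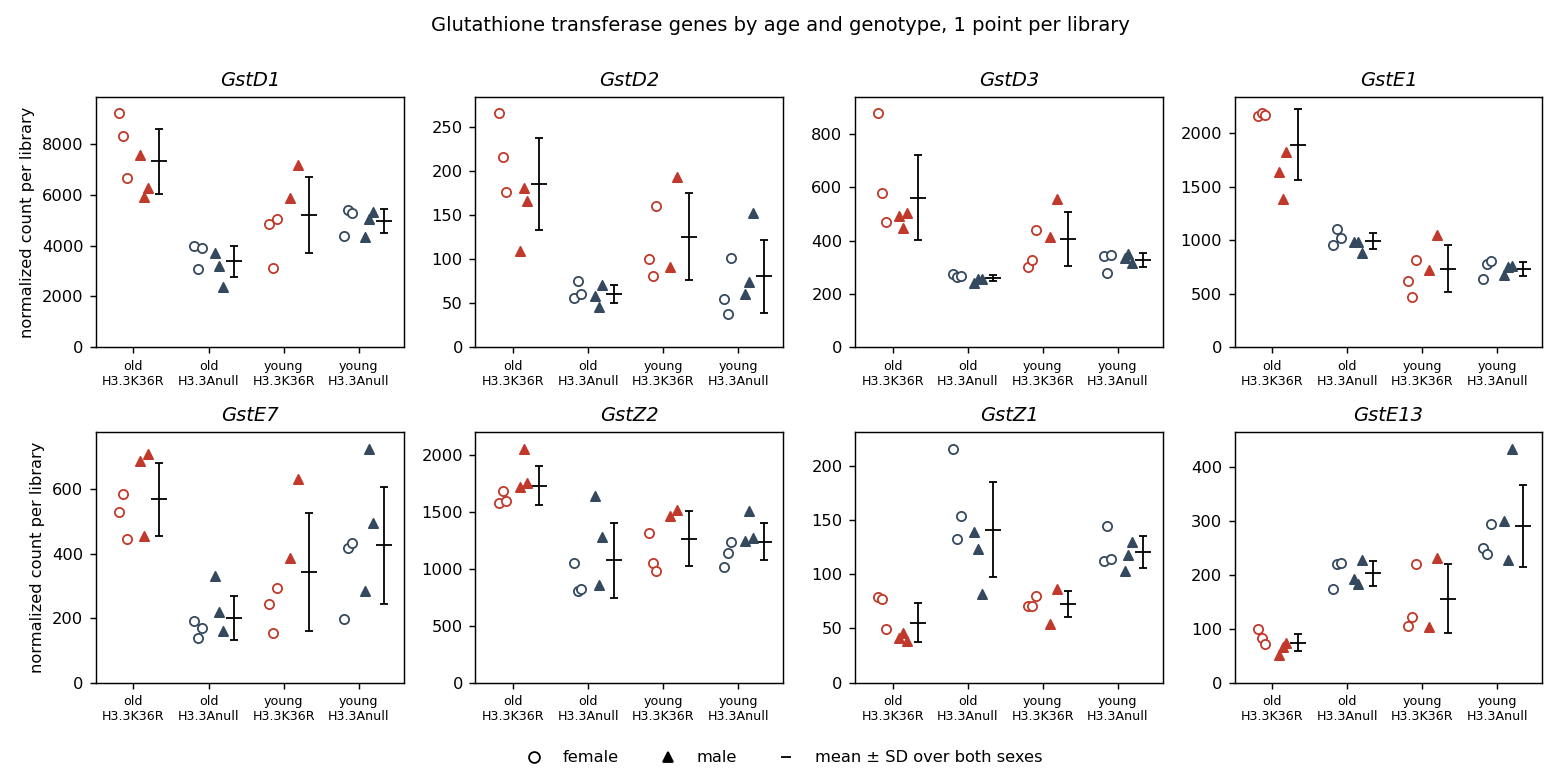
Normalized counts (y axis, linear from 0) of 8 genes in the 23 libraries, by age and genotype (x axis), with open circles for females, filled triangles for males and the mean ± SD over both sexes beside each group. In old heads GstD1, GstD2, GstD3, GstE1 and GstE7 of H3.3K36R lie above every old H3.3Anull library, and GstZ1 and GstE13 lie below every old H3.3Anull library, for GstZ1 by a narrow gap (78.7 against 81.6).

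Summed over each subfamily, the GstD count was 7336 to 11268 (median 8491) in old H3.3K36R libraries, against 3347 to 4876 (median 4513) in old H3.3Anull libraries. The GstE sum was 14911 to 19408 (median 16475) in old H3.3K36R, against 11159 to 14744 (median 13204) in old H3.3Anull. Taken over both sexes, neither sum overlapped between the old genotypes, whereas the GstO, GstS, GstT and GstZ sums did. All 35 genes together reached 30343 to 39787 in old H3.3K36R libraries, against 21524 to 27909 in old H3.3Anull libraries. In young heads every subfamily sum overlapped between the genotypes.

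**Figure D4:**
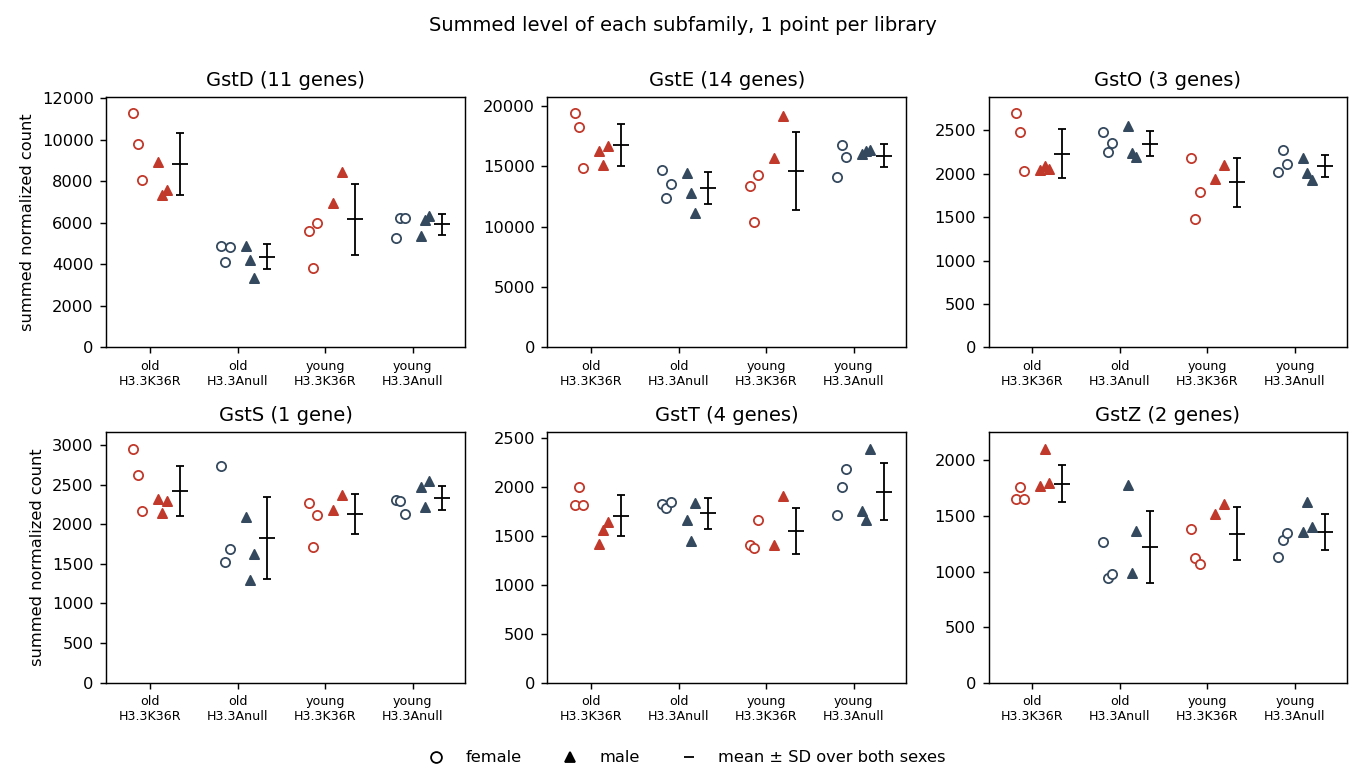
Summed normalized count (y axis, linear from 0) of each Gst subfamily in the 23 libraries, by age and genotype (x axis), with open circles for females, filled triangles for males and the mean ± SD over both sexes beside each group. The GstD and GstE sums of old H3.3K36R libraries lie above those of all old H3.3Anull libraries, and the other sums overlap.

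Both sexes contributed to the difference in old heads. In old females 10 genes rose in H3.3K36R and 2 fell (5.65% of all tested genes rose and 5.15% fell), and in old males 6 rose and 2 fell (4.67% and 3.34% of all tested genes). The 8 genes called in old males, GstD1, GstD2, GstD3, GstE1, GstE7 and GstZ2 upwards and GstE13 and GstZ1 downwards, were all called in the same direction in old females, which share no library with them. The tests in the sexes are not independent, since 1 fit gave both with a shared estimate of the spread of each gene. An absolute log2 fold change above 1 was reached by 5 of the 8 in old males, where 3.36% of all tested genes passed with such a change. GstD4, GstE3, GstE8 and GstE9 rose in old females and did not pass in old males. GstD4 had 53.4, 21.6 and 39.2 normalized counts in old H3.3K36R females, against 4.96, 10.1 and 11.1 in old H3.3Anull females, whereas old males had 3.25, 10.3 and 12.5 in H3.3K36R, against 8.17, 11.9 and 4.69 in H3.3Anull. The log2 fold change of GstD4 in old females was 1.98 ± 0.55 (adjusted p = 0.0229), and it no longer passed without old female H3.3K36R replicate 1 or 3 or old female H3.3Anull replicate 1, where the adjusted p reached 0.102.

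The sex difference of the genotype difference was itself tested. None of the 34 genes passed in old heads (0.0480% of all genes did with limma). An unadjusted p below 0.05 was found for 670 of all 12493 tested genes and for 2 of the 34. GstE9 had the lowest p of these (0.00453, adjusted p = 0.549), with 1006, 908 and 928 normalized counts in old H3.3K36R females, against 618, 555 and 566 in old H3.3Anull females, and 789, 766 and 759 in old H3.3K36R males, against 944, 883 and 731 in old H3.3Anull males. In young heads none passed either (0% of all genes). There 769 of all 12493 tested genes and 8 of the 34 had an unadjusted p below 0.05. The libraries of the genotypes did not overlap for 14 genes upwards and 3 downwards in old females, where 13.6% and 16.7% of all tested genes were separated in these directions. In old males they did not overlap for 13 genes upwards and 5 downwards (17.4% and 14.6%).

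Some markers of other tissues differed between the genotypes in old heads. The summed count of the 17 midgut markers, to which the amylase genes contribute, was 4550.3 to 14787 in old H3.3K36R libraries, against 973 to 7190.1 in old H3.3Anull libraries. Of the 12 midgut markers tested, Amy-p and Amy-d, which encode amylases, rose (log2 fold changes 1.73 and 1.75) and none fell, a share near that of all tested genes. The median over the 12 was -0.33 in old heads, 0.11 in old females and -0.998 in old males. Old female H3.3Anull replicate 1 had a midgut sum of 7190.1, above 2 of the 3 old H3.3K36R females at 5062 and 4550.3, and in it GstD1 had 3985, below all 3 of them, while GstS1 had 2733, above 2 of them. The fat body gene Lsp2 rose in old H3.3K36R heads (log2 fold change 5.99), to fell in them (-1.30), and the other 5 fat body markers did not pass. Of 12 ovary markers, genes of the eggshell, 6 fell and none rose in old H3.3K36R heads, where 8.59% of all tested genes fell. Their median log2 fold change was -1.80, with sums of 64.9 to 194 in old H3.3K36R, against 97.6 to 1640.3 in old H3.3Anull. None of the 9 testis and 6 male accessory gland markers tested passed, and 1 of 6 Malpighian tubule markers fell. None of the 6 head markers passed, and their sum, mostly ninaE, was 732283 to 942366 in old H3.3K36R, against 977266 to 1192570 in old H3.3Anull. The part of these tissues in the Gst differences was not tested. In whole heads, a change in the number of cells that express a gene and a change in its RNA per cell cannot be told apart.

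In young heads the genes that passed between genotypes were all lower in H3.3K36R. No Gst gene rose in H3.3K36R and 5 fell, where 9.21% of all tested genes passed (4.80% higher, 4.40% lower), and the median log2 fold change was -0.07 over the 34 genes and 0.02 over all tested genes. The direction was mixed among the genes that did not pass, since 8 of the 10 GstD genes had estimates above 0 (median 0.27), and the median over the 34 genes was -0.24 within young females and 0.09 within young males. GstE13 (-0.95 ± 0.21, adjusted p = 0.00535) and GstZ1 (-0.77 ± 0.18, adjusted p = 0.00801) were lower at both ages and were the 2 genes called in young as well as old heads, whose libraries are separate. Both ages were tested in 1 fit with a shared estimate of the spread of each gene. GstD9 (-0.74 ± 0.17, adjusted p = 0.00797), GstT4 (-0.51 ± 0.13, adjusted p = 0.0161) and GstO3 (-0.34 ± 0.10, adjusted p = 0.0402) fell in young heads.

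GstE13 had 104, 121 and 219 normalized counts in young H3.3K36R females, against 250.1, 238 and 294 in young H3.3Anull females, and 103 and 231 in the 2 young H3.3K36R males, against 299, 228 and 433 in young H3.3Anull males. GstZ1 had 70.5, 71.1 and 79.7 in young H3.3K36R females, against 112, 144 and 114 in young H3.3Anull females, and 54.4 and 86.3 in young H3.3K36R males, against 103, 118 and 129.7 in young H3.3Anull males. GstZ1 was separated by genotype in both sexes and GstE13 only in females. GstD9 had 185, 139 and 186 in young H3.3K36R females, against 384, 369 and 329 in young H3.3Anull females, but 422 and 361 in young H3.3K36R males, against 495, 523 and 370.1 in young H3.3Anull males, which overlap. GstT4, on the X chromosome, had 751 to 1177 (median 824, n = 5) in young H3.3K36R, against 1075 to 1710.2 (median 1224, n = 6) in young H3.3Anull. GstO3 had 433 to 692 (median 603) in young H3.3K36R, against 656 to 802 (median 758) in young H3.3Anull, and its call was lost under 11 of 35 alternatives (adjusted p of up to 0.124). Neither GstT4 nor GstO3 passed within one sex. In old heads GstO3 did not pass, with 656 to 872 (median 720) in H3.3K36R, against 801 to 995 (median 874) in H3.3Anull. It was still lower without overlap within each sex of old heads, as were 16.7% of all tested genes in old females and 14.6% in old males.

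Within young females GstE4 rose (log2 fold change 2.62 ± 0.67, adjusted p = 0.0298) and GstD9 (-1.09 ± 0.17, adjusted p = 0.000718) and GstE9 (-0.77 ± 0.19, adjusted p = 0.0221) fell, where 2.14% of all tested genes rose and 1.75% fell. GstE4 had 93.1, 63.7 and 83.5 normalized counts in young H3.3K36R females, against 12.1, 6.87 and 20.3 in young H3.3Anull females, and these did not overlap. Each of GstE4 and GstE9 lost its call when a library of this comparison was left out (5 and 4 such libraries). Within young males, where H3.3K36R had 2 libraries, GstD10 rose (0.88 ± 0.23, adjusted p = 0.036), where 1.88% of all genes rose, 2.75% fell and 1.42% passed with an absolute log2 fold change above 1, with 68.0 and 68.4 normalized counts in H3.3K36R, against 28.9, 42.4 and 39.6 in H3.3Anull. This call was lost under 7 of 34 alternatives. The libraries of the genotypes were separate for 2 genes upwards and 9 downwards in young females, where 12.3% and 10.8% of all tested genes were, and for 5 upwards and 2 downwards in young males (15.7% and 13.5%).

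Ageing differed between the genotypes. In H3.3K36R heads 15 of the 34 genes rose with age and 4 fell, where 40.4% of all tested genes passed (20.5% higher, 19.9% lower), and the median log2 fold change was 0.37. In H3.3Anull heads 6 rose and 8 fell, where 41.9% passed (21.5% higher, 20.4% lower), and the median was -0.19. Over all tested genes these medians were 0.03 and 0.04. Among the 10 tested GstD genes 6 rose with age and 1 fell in H3.3K36R (median 0.78), against 2 and 1 in H3.3Anull (median -0.29).

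The genes with ageing calls in both genotypes numbered 10, of which 8 moved the same way. The share of all tested genes called in both genotypes was not computed, so these counts do not set the Gst genes apart. GstD5, GstD10, GstE1, GstO1, GstO3 and GstT1 rose and GstE2 and GstE14 fell, and the 2 that moved in opposite ways were GstD1 and GstE7. GstE14 had the largest decrease in H3.3Anull, with 119 to 199.5 normalized counts (median 165) in old and 240.3 to 478 (median 338) in young H3.3K36R heads, and 92.1 to 170.0 (median 132) in old and 259 to 448 (median 363) in young H3.3Anull heads. Old and young did not overlap in either genotype, and the fitted ageing differences on the log2 scale were -1.16 ± 0.16 in H3.3K36R (adjusted p = 6.97e-06) and -1.41 ± 0.16 in H3.3Anull (adjusted p = 2.72e-07). GstD10 had 69.9 to 128 (median 103) in old and 39.0 to 68.4 (median 47.8) in young H3.3K36R heads, and 73.2 to 107 (median 92.5) in old and 28.9 to 74.6 (median 43.2) in young H3.3Anull heads. GstD10 rose by 0.97 ± 0.21 on the log2 scale in H3.3K36R (adjusted p = 0.000875) and by 0.93 ± 0.20 in H3.3Anull (adjusted p = 0.000797), and the interaction was 0.05 ± 0.29 (adjusted p = 0.974).

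GstD5 had the largest increase with age in either genotype (log2 fold change 1.95 ± 0.49 in H3.3K36R, adjusted p = 0.00289, and 1.32 ± 0.47 in H3.3Anull, adjusted p = 0.0265), at the low counts given above. The call in H3.3Anull was lost under 7 of 34 alternatives, with an adjusted p of up to 0.0809. GstO1, the only one of the 3 GstO genes with a larger estimate in H3.3Anull, rose by 0.43 ± 0.14 in H3.3K36R (adjusted p = 0.0141) and 0.73 ± 0.13 in H3.3Anull (adjusted p = 8.78e-05). It had 96.0 to 182 normalized counts (median 158) in old and 91.9 to 121 (median 107) in young H3.3K36R heads, and 146 to 186 (median 171) in old and 82.5 to 113 (median 103) in young H3.3Anull heads. GstD9 rose in H3.3K36R (1.10 ± 0.17, adjusted p = 2.54e-05), with 415 to 636 (median 519) in old and 139 to 422 (median 186) in young heads, and had 0.26 ± 0.16 in H3.3Anull (adjusted p = 0.205). GstD4 rose in H3.3K36R (1.39 ± 0.47, adjusted p = 0.02) and had 0.67 ± 0.44 in H3.3Anull (adjusted p = 0.238). The interaction was not called for GstD9 (0.83 ± 0.24, adjusted p = 0.0722) or GstD4 (0.72 ± 0.64, adjusted p = 0.716). GstE13 fell in H3.3K36R (-0.99 ± 0.21, adjusted p = 0.000697) and had -0.49 ± 0.20 in H3.3Anull (adjusted p = 0.0562), a difference that was not called (interaction -0.50 ± 0.29, adjusted p = 0.502). GstE3 fell in H3.3Anull (-1.08 ± 0.24, adjusted p = 0.000983), with 605 to 1304 (median 799) in old and 1193 to 2348 (median 2019) in young heads, and had 0.12 ± 0.25 in H3.3K36R (interaction 1.20 ± 0.35, adjusted p = 0.0794).

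**Figure D5:**
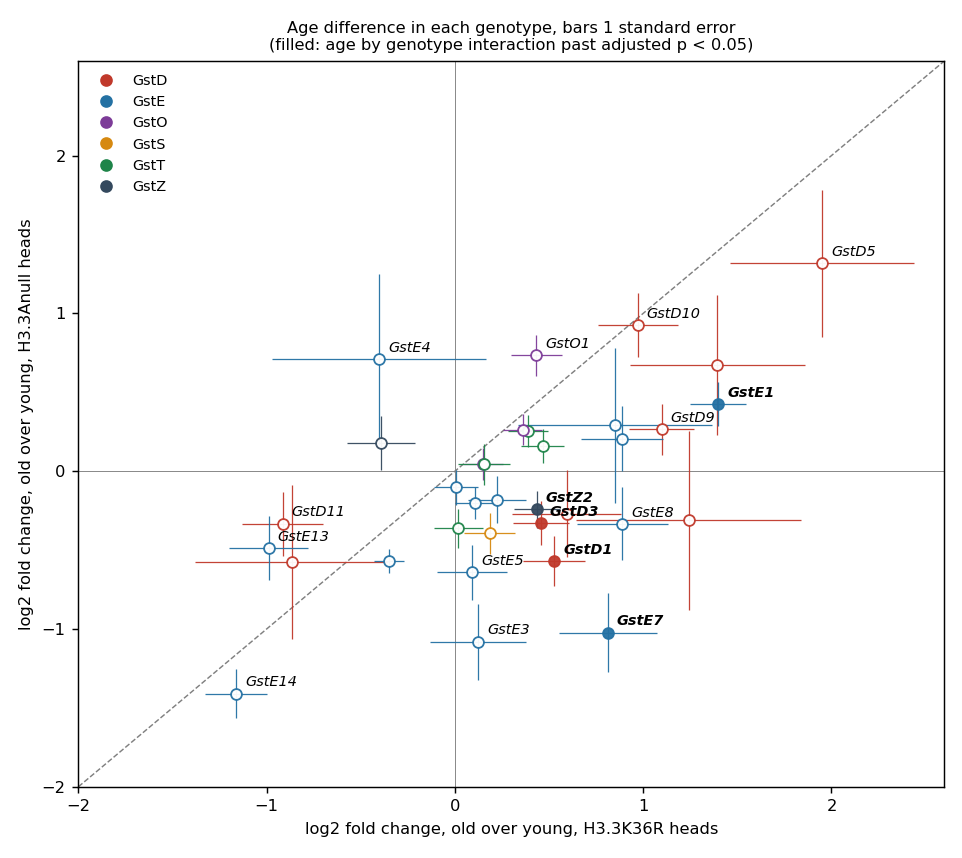
Log2 fold change of old over young in H3.3K36R heads (x axis) and in H3.3Anull heads (y axis) for each of the 34 tested genes, with bars of 1 standard error, the line of equal change dashed, and filled points for the 5 genes whose age by genotype interaction passed the test. The 5 filled points lie below the dashed line, and GstD1, GstD3, GstE7 and GstZ2 lie right of 0 on the x axis and below 0 on the y axis.

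The test of the difference itself, the interaction of age and genotype, called 5 of the 34 genes, all with a larger genotype difference in old heads, where 2.22% of all tested genes passed (1.42% in this direction). They were GstE7 (1.84 ± 0.36, adjusted p = 0.00792), GstD1 (1.10 ± 0.23, adjusted p = 0.0133), GstE1 (0.97 ± 0.20, adjusted p = 0.014), GstZ2 (0.68 ± 0.17, adjusted p = 0.0368) and GstD3 (0.79 ± 0.21, adjusted p = 0.0462). With age GstD1 rose by 0.53 ± 0.17 in H3.3K36R (adjusted p = 0.0141) and fell in H3.3Anull (-0.57 ± 0.16, adjusted p = 0.00564). GstE7 likewise rose in H3.3K36R (0.81 ± 0.26, adjusted p = 0.016) and fell in H3.3Anull (-1.02 ± 0.25, adjusted p = 0.00202). GstE1 rose in both, by 1.40 ± 0.15 in H3.3K36R (adjusted p = 1.54e-07) and 0.43 ± 0.14 in H3.3Anull (adjusted p = 0.0176).

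In young heads these 5 genes overlapped between genotypes over both sexes. Within young males, with 2 H3.3K36R libraries, GstD1 and GstD3 were higher in H3.3K36R without overlap, as were 15.7% of all tested genes. None of the 5 was separated within young females. GstE7 had 154 to 633 normalized counts (median 292) in young H3.3K36R, against 199 to 726 (median 425) in young H3.3Anull, and GstE1 had 471 to 1046 (median 723) against 637 to 806 (median 759). GstD3 had 299.5 to 555 (median 415) in young H3.3K36R, against 277 to 348 (median 338) in young H3.3Anull, and GstZ2 had 985 to 1518 (median 1316) against 1023 to 1513 (median 1242). The interaction calls of GstD1, GstE1 and GstE7 were kept under the 34 alternatives run for each. That of GstD3 was lost under 23 of 34 alternatives and that of GstZ2 under 14 of 34, with adjusted p-values of up to 0.0955 and 0.15. Without young male H3.3K36R replicate 3 the interaction called 9 genes, and it called 3 without any of 9 other libraries, among them old female H3.3K36R replicates 1 and 2.

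The Gst genes that passed between the sexes numbered 3 of 34 in young heads and 6 of 34 in old heads. In young heads no gene was higher in females and 3 were lower (8.19% of all tested genes passed, 4.93% higher and 3.26% lower), and in old heads 4 were higher and 2 lower (30.3% passed, 15.1% higher and 15.2% lower). GstE2 was lower in females at both ages, by the same estimate, with log2 fold changes of -0.55 ± 0.08 in old heads (adjusted p = 2.59e-05) and -0.55 ± 0.08 in young heads (adjusted p = 0.000273). Old females had 221 to 266 normalized counts of GstE2 (median 234), against 341 to 363 (median 349) in old males, and young females had 235 to 396 (median 344), against 455 to 528 (median 483) in young males. The sexes did not overlap at either age. GstE9 (-0.90 ± 0.14, adjusted p = 0.000337) and GstD9 (-0.78 ± 0.13, adjusted p = 0.000693) were lower in young females. For GstD9 the sexes overlapped in young H3.3Anull heads (329 to 384 normalized counts in females, 370.1 to 523 in males). They did not overlap in young H3.3K36R heads (139 to 186 in females, 361 and 422 in the 2 males). Young females had 249 to 682 normalized counts of GstE9 (median 397), against 611 to 1019 (median 692) in young males.

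In old heads GstT3 (0.48 ± 0.12, adjusted p = 0.00535), GstT1 (0.27 ± 0.08, adjusted p = 0.0201), GstZ1 (0.61 ± 0.16, adjusted p = 0.00777) and GstD4 (1.08 ± 0.39, adjusted p = 0.0392) were higher in females. Both genotypes entered these comparisons together. For GstD4 the sexes overlapped in old H3.3Anull heads (4.96 to 11.1 normalized counts in females, 4.69 to 11.9 in males). They did not overlap in old H3.3K36R heads (21.6 to 53.4 in females, 3.25 to 12.5 in males). GstT3 had 244 to 339 normalized counts (median 299) in old females, against 171 to 235 (median 215) in old males, with no overlap. GstT1 had 312 to 434 (median 396) in old females, against 283 to 355 (median 314) in old males, which overlap. GstZ2 was lower in old females (-0.32 ± 0.12, adjusted p = 0.0472), a call lost under 21 of 34 alternatives, and that of GstD4 was lost under 11 of 33.

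Among the genes around the transferases, the list for glutathione synthesis and use held 13 genes, of which 12 were tested. In old heads 3 of the 12 rose in H3.3K36R and 1 fell, where 10.0% of all tested genes rose and 8.59% fell. Gclc, the catalytic subunit of the enzyme for the first step of glutathione synthesis, rose by 0.35 ± 0.06 (adjusted p = 0.000343), with 3059 to 3748 normalized counts in old H3.3K36R heads, against 2399.5 to 2950.3 in old H3.3Anull heads. Gss1 (1.81 ± 0.34) and Gss2 (1.62 ± 0.42), neighbouring copies of glutathione synthetase on the X chromosome, also rose, on at most 58.4 normalized counts, and reads could be shared between them. Mgstl, the microsomal glutathione transferase, which is unrelated in sequence to the members here, fell (-0.61 ± 0.17, adjusted p = 0.0122). Gclm, the modifier subunit, and the other 7 did not pass. The median log2 fold change was 0.10 over the 12 genes.

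In young heads Gss2 rose (1.67 ± 0.44) and Mgstl (-0.73 ± 0.18) and the glutathione peroxidase gene Gtpx (-0.45 ± 0.12) fell in H3.3K36R. Of all tested genes 4.80% rose and 4.40% fell there. None of the 12 passed in the interaction of age and genotype, where 2.22% of all tested genes did. With age 4 rose and 1 fell in H3.3K36R, against 5 and 2 in H3.3Anull, where 40.4% and 41.9% of all tested genes passed in either direction. Gclm was among those that rose in both, by 0.84 ± 0.19 in H3.3K36R and 0.80 ± 0.18 in H3.3Anull. Of the CncC pathway list (cnc, Keap1 and maf-S, all 3 tested), none passed between genotypes at either age. The log2 fold change of cnc was 0.07 ± 0.07 in old heads (adjusted p = 0.51), and cnc rose with age by 0.57 ± 0.07 in H3.3K36R (adjusted p = 9.85e-07) and 0.31 ± 0.07 in H3.3Anull (adjusted p = 0.000643). These are transcript levels, and the activity of CncC was not measured.

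Some members passed in none of the 6 comparisons of genotype at either age, age in either genotype and sex at either age. They numbered 8, namely GstD6, GstD8, GstE4, GstE6, GstE10, GstE11, GstE12 and GstO2. The share of all tested genes that passed in none of the 6 was not computed. GstD6, GstD8 and GstE10 had medians of at most 8.14 normalized counts, at which a change would be hard to see. GstE10 still had 6.51 to 16.0 normalized counts in old H3.3K36R heads, against 1.63 to 6.46 in old H3.3Anull heads, without overlap. GstO2 had 1149 to 1727 normalized counts (median 1202) in old H3.3K36R heads, against 1182 to 1521 (median 1225) in old H3.3Anull heads, a log2 fold change of 0.03 ± 0.10. GstE11 had 94.3 to 153 (median 113), against 106 to 131 (median 119), and -0.03 ± 0.11.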

How the data were processed

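RNA-seq of adult Drosophila melanogaster heads was taken as 1 deposited table of normalized counts. Per the labels and the study's methods, the authors aligned reads with STAR 2.7.7a to dm6, counted them on genes with featureCounts (Subread 2.0.3) and divided the counts by DESeq2 1.34.0 size factors. These deposited values are a signal on a common scale rather than raw counts, and 100% of them came out as whole reads when the size factor was undone (within a tolerance of 0.01). The annotation release and the handling of reads that match several genes are not given in the sources used here. The labels and methods do not state the strand setting, and the name of the deposited table carries a mark that may refer to one, which was not checked. Depth was 21263006 to 42763126 reads per library.

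The filter on low values, 10 normalized counts or more in 3 or more of 23 libraries, left 12493 of 17606 genes, which were tested on log2(normalized count + 1), so fold changes of low genes are understated. The test was limma 3.58.1 with a variance trend (R 4.3.3), two-sided, with Benjamini-Hochberg adjustment over all tested genes and a threshold of 0.05. Comparisons over both sexes used 4 groups of age by genotype and a term for sex, and comparisons within or between sexes used 8 groups. The fit was also run on simulated counts, drawn independently for each library. These hold no component shared between replicates or brought in by other tissues, so they cannot show what such a component does to the fit. Nothing in the labels says that replicates were separate crosses, so p-values measure only the spread between these libraries. Positions and exon lengths came from Ensembl release 115, and 17527 of 17606 identifiers had a name. Figures were drawn with matplotlib 3.10.9.

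Members given in full were the up to 6 with the largest absolute log2 fold change among those called in each of 7 comparisons, and the most abundant of each subfamily per kilobase. The members, gene lists and tests were chosen with earlier results of these data known. Alternatives were pseudocounts of 0.5 and 5, no filter, a minimum of 50, upper-quartile scaling, edgeR 4.0.16 and DESeq2 1.42.0 on the recovered reads, library weights, all 24 libraries, a replicate block, no sex covariate, only the libraries of the groups compared, for genotype within a sex an added threshold of 1 on the absolute log2 fold change, and each library left out in turn.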

Additional observations from a re-analysis of the deposited data

Results flagged for a closer look

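The test of the interaction of age and genotype itself (limma) called 5 of the 34 genes, where 2.22% of all tested genes passed. The call of GstD3 was lost under 23 of 34 alternatives and that of GstZ2 under 14 of 34. With 1 library left out in turn, 3 to 9 genes were called. The log2 interaction was 1.84 for GstE7 (adjusted p = 0.00792), 1.10 for GstD1 (adjusted p = 0.0133), 0.97 for GstE1 (adjusted p = 0.014), 0.68 for GstZ2 (adjusted p = 0.0368) and 0.79 for GstD3 (adjusted p = 0.0462), each positive where H3.3K36R over H3.3Anull was larger in old heads.

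Young male H3.3K36R replicate 2, which entered no main comparison, was above each of the other 23 libraries in 6 Gst genes. GstS1 had 6194 normalized counts in it, against at most 2952 in the others, and GstO1 had 235, against at most 186. GstD8 had 41.9 against at most 17.7, GstE10 had 26.1 against at most 16.0, GstD7 had 13.6 against at most 10.4, and GstE8 had 159.8 against at most 157. The same library held the high midgut and testis marker sums, whose part in these values was not tested. Groups of 3 or 2 libraries were too small for a check of single libraries within a group.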

How the results depend on the processing

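Of 89 called values of single genes, recomputed 3071 times in all, 2896 kept direction and threshold, 175 kept direction but no longer passed, and none changed sign. The calls kept under all alternatives run for them numbered 60. Among counts of called Gst genes, that between genotypes in young heads was 3 with only the libraries of the groups compared. The interaction of age and genotype called 3 with edgeR, 3 without the sex covariate and 8 with DESeq2, and DESeq2 called 5 between sexes in young heads. Within old males 5 genes also had an absolute log2 fold change above 1. Within young males 0 genes were called without a filter, with upper-quartile scaling, with library weights, with only the libraries of the groups compared or with the added fold threshold, and 3 with all 24 libraries. The cause of these shifts was not tested, beyond the fewer libraries or stricter threshold of some. The interaction of sex and genotype called 0 genes in old heads with limma, edgeR and DESeq2.

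With 1 library left out in turn, the counts were 11 to 14 for genotype in old heads, 4 to 6 for genotype in young heads, 3 to 9 for the interaction of age and genotype, 11 to 16 for age in H3.3Anull, 16 to 20 for age in H3.3K36R, 4 to 7 for sex in old heads and 3 to 5 for sex in young heads. For genotype they were 10 to 13 in old females, 5 to 9 in old males, 1 to 4 in young females and 0 to 2 in young males, and for sex and genotype 0 in old heads and 0 to 3 in young heads. Sex in young heads gave 5 without young male H3.3Anull replicate 1, young male H3.3K36R replicate 1 or young female H3.3K36R replicate 3. Genotype in old males gave 5 without H3.3Anull replicate 2 or H3.3K36R replicate 3 of that sex and age. Genotype in young females gave 1 without H3.3Anull replicate 2 or H3.3K36R replicate 2. Genotype in young males gave 0 without H3.3Anull replicate 1 or 3 and 2 without H3.3K36R replicate 1, and the interaction of sex and genotype in young heads gave 3 without that same library. The interaction of age and genotype gave 9 without young male H3.3K36R replicate 3, and 3 without any one of old female H3.3K36R replicates 1 and 2, young female H3.3K36R replicates 2 and 3, old female H3.3Anull replicates 2 and 3, old male H3.3Anull replicate 2, young female H3.3Anull replicate 3 and young male H3.3Anull replicate 2.

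The main fit did not treat replicate numbers as pairs. Deviations from the group mean were compared over all groups. Their mean correlation was 0.101 between same-numbered libraries of different groups and -0.0492 between differently numbered ones. The labels do not say whether a replicate number stands for a shared batch. Deviations of same-numbered libraries of the 2 genotypes, of the same age and sex, had a mean correlation of 0.0163 (-0.346 to 0.331), with 3 of 11 pairs over 0.1. With the replicate block the counts were 13 for genotype in old heads, 5 in young heads, 6 for the interaction of age and genotype, 5 for genotype in young females and 2 in young males. At the depth of these libraries GstD6, GstD7, GstD8 and GstE10 had too few reads for small differences to be seen.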
